A study of Mus musculus with 8 samples.

Results

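Genes that cells use to copy their DNA and to divide were followed in forepaw skin of mice after an injection of PACAP. The set holds 40 genes, of which 26 belong to mitosis and 14 to DNA replication, out of 29608 gene names on the array. A gene was taken when a non-control probe of the files carried its name, which gave 55 of 39429 probes. On each array, all 40 genes had a probe with a channel well above background, as did 53 of their 55 probes and 30359 probes in all. The brightest probe stands for a gene that had several, and 28 of the genes had 1 probe.

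PACAP (pituitary adenylate cyclase-activating polypeptide) is a neuropeptide, and PAC1R, encoded by Adcyap1r1, is its selective receptor. Male wild-type C57BL/6 mice (WT mice) and Adcyap1r1 -/- mice (PAC1R KO mice), 9 to 10 weeks old, were anaesthetized and received 5 µL of PACAP or of vehicle (saline with bovine serum albumin) into the forepaw footpad. Skin was taken 30 or 60 min later, which makes 8 groups by genotype, time and treatment, with 6 mice per genotype and 1 RNA sample per group. The PACAP and the vehicle sample of a genotype and time were hybridised together on 2 arrays with swapped dyes, so 4 comparisons of PACAP with vehicle rest on 4 pairs of RNA samples. No tissue restriction of the deletion was stated, nor which mice entered each RNA sample. The WT arrays shared 1 slide and the KO arrays a different one, so slide and genotype cannot be told apart. Where tests are given, they measure only the spread between these RNA samples.

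The probe of the deleted gene Adcyap1r1 was lower in KO than in WT in 4 of 4 matched pairs, by -0.36 to -0.11 on the log2 scale, which did not pass the test (limma, log2 difference -0.28, SE 0.06, adjusted p = 0.0565). Samples are therefore called WT or KO by their labels. The skin label fitted the measured genes in that 15 of 15 markers of basal and 15 of 15 of suprabasal keratinocytes were well above background, while 28 of 28 skeletal muscle and 16 of 20 hepatocyte markers were so too. Each array held 43020 non-control spots, of which 78.6% to 94.5% were well above background in red and 54% to 65.3% in green. The precision of all values is limited by the number of arrays.

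Dividing cells copy their DNA in S phase and separate the copies in mitosis. Before S phase, Cdc6 and Cdt1 load the Mcm2-7 helicase onto DNA, cyclin E (Ccne1, Ccne2) with its kinase starts replication, Pcna clamps the polymerase, and Rrm1, Rrm2 and Tyms supply nucleotides. Cdk1 with cyclin A or B (Ccna2, Ccnb1, Ccnb2) then drives cells into mitosis, where Plk1, Aurka and Aurkb build the spindle, Bub1 and Bub1b guard chromosome attachment, and Cdc20 and Ube2c end mitosis through protein degradation. In skin these transcripts are known mainly from the basal layer of the epidermis and from the hair matrix, where cells divide. Replication genes are classically driven by E2F factors, while mitosis genes are repressed and activated later in the cycle through a promoter element named CHR together with CCAAT boxes, to which NF-Y binds.

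Promoter sequences are shown for these elements, since mitosis and replication genes are described apart. RefSeq windows (build GRCm38.p6) were found for 33 of the 40 members, and 250 bases before each start were searched on both strands. CHR was searched as TTTGAA or TTCGAA, the CCAAT box as CCAAT, and E2F as TTTGGCGC, TTTCGCGC, TTTCCCGC or TTTGCCGC. The printed 160 bases end at the base before the start and run 5′ to 3′ along the gene, with every match on either strand in capitals, and overlapping matches run together. The mitosis genes shown are the 5 with the lowest level at 60 min relative to 30 min, and the replication genes are those with an E2F match within the 160 bases.
Plk1 (chr7:122159275-122159434, plus strand): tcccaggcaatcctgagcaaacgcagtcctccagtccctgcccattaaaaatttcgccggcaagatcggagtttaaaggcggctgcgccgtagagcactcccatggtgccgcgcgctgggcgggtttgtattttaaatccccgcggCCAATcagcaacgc
Mki67 (chr7:135716380-135716539, minus strand): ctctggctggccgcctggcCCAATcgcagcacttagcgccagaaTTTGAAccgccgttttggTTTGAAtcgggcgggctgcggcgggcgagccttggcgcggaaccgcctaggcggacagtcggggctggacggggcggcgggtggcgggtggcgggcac
Cdc20 (chr4:118437344-118437503, minus strand): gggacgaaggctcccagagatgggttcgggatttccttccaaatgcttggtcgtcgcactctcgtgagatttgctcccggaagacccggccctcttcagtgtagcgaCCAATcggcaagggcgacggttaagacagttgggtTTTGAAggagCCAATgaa
Aurka (chr2:172370571-172370730, minus strand): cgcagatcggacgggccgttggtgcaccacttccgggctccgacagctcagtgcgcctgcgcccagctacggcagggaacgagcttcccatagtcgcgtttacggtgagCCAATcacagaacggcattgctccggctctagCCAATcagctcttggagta
Cenpe (chr3:135212403-135212562, plus strand): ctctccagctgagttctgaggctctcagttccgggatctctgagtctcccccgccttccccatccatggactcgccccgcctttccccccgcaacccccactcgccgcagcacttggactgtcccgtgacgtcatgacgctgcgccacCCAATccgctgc
Cdc6 (chr11:98907991-98908150, plus strand): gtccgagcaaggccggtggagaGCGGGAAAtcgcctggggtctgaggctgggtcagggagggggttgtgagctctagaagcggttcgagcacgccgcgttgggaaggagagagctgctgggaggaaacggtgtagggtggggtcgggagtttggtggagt
Mcm5 (chr8:75109349-75109508, plus strand): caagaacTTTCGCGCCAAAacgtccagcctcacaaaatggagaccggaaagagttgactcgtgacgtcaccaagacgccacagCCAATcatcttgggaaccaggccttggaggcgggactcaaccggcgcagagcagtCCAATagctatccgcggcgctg
Mcm6 (chr1:128359706-128359865, minus strand): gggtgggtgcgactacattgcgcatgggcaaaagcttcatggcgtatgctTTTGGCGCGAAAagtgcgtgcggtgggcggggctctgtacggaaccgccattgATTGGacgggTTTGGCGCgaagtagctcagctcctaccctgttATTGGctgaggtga
Mki67 and Cdc20 hold CHR and CCAAT matches, Plk1, Aurka and Cenpe hold CCAAT matches alone, and Mcm5 and Mcm6 hold E2F next to CCAAT matches.

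Across all member windows, CCAAT boxes stood in 20 of 22 mitosis windows (90.9%) and 9 of 13 replication windows (69.2%), against 33.8% of 32851 promoters. A CHR match stood in 9 of 22 mitosis windows (40.9%) and 2 of 13 replication windows (15.4%), against 17.1% of all promoters. An E2F match stood in 1 of 22 mitosis windows (4.55%) and 4 of 13 replication windows (30.8%), against 1.86% of all promoters. A match describes the letters and is no evidence of binding in these samples.

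None of the 40 genes of the set was up- or down-regulated by PACAP past 2-fold in any of the 4 comparisons. The rule for an up- or down-regulated probe asked for a mean over both arrays of at least 2-fold, or at most 0.5-fold, a shared direction, and a Feature Extraction p (the scanner software's p for a spot on 1 array) below 0.01 on both. No member met this rule, 0 of 40 in each comparison, while it was met by 0.451% of all measured probes in WT mice at 30 min, 0.866% in WT mice at 60 min, 0.912% in KO mice at 30 min and 0.352% in KO mice at 60 min. With the fold lowered to 1.5, it was met by 1 member, Cenpe, in WT mice at 30 min, where 1.81% of probes met it. In WT mice at 60 min, KO mice at 30 min and KO mice at 60 min it was met by 0 of 40 members, against 1.15%, 3.51% and 0.715% of probes. These counts use the brightest probe of each member. Dimmer probes of Ccnb1 (1.71-fold and 1.84-fold) and Cdk1 (1.61-fold) met the 1.5-fold rule in KO mice at 30 min.

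Cenpe, the kinesin that moves chromosomes to the middle of the spindle, was read on chromosome 3 (mm9) at bases 134936387 to 134936446. Its level in WT mice at 30 min was 7.91 after vehicle and 8.37 after PACAP on the log2 scale, and the ratio was 1.51-fold, with 1.54-fold and 1.49-fold on the arrays (Feature Extraction p of 0.0039 and 0.0072). In the other comparisons it was 1.02-fold (WT, 60 min), 0.909-fold (KO, 30 min) and 1.29-fold (KO, 60 min). Mki67, the proliferation marker Ki-67, was 1.45-fold, 1.1-fold, 0.895-fold and 1.29-fold in the same order. The spindle checkpoint kinase Bub1 at 30 min was 1.21-fold in WT mice and 0.824-fold in KO mice, and at 60 min 1.51-fold and 1.49-fold. The Bub1 ratio in WT mice at 60 min was past 1.5-fold without the p on both arrays. Its values at 60 min were alike in both genotypes, while those at 30 min lay on opposite sides of 1.

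Cdk1, the kinase of mitotic entry, ran the other way at 30 min. At 30 min it was 0.801-fold in WT mice and 1.47-fold in KO mice, and at 60 min 1.02-fold and 1.03-fold. Its partner Ccnb1 at 30 min was 0.97-fold in WT mice and 1.32-fold in KO mice, and at 60 min 1.1-fold and 1.05-fold. At 30 min Birc5 (survivin), a subunit of the complex that carries Aurkb, was 0.921-fold in WT mice and 1.26-fold in KO mice, and at 60 min 1.1-fold and 1.19-fold. For Plk1 the ratio at 30 min was 1.02-fold and 1.01-fold, and at 60 min 1.05-fold and 1.23-fold.

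Of the replication genes, Pcna at 30 min was 0.946-fold in WT mice and 1.16-fold in KO mice, and at 60 min 1.1-fold and 0.952-fold. For the helicase subunit Mcm5 the values were 0.902-fold and 1.01-fold, then 1.19-fold and 1.01-fold. For Ccne1 they were 0.837-fold and 1.24-fold, then 0.892-fold and 1.08-fold. None of these passed either fold.

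The whole set was spread about 1 in WT mice at 30 min, from 0.77-fold (Cenpa, the centromeric histone) to 1.51-fold (Cenpe), with 22 of 40 members above 1 and a median log2 ratio of 0.02. In WT mice at 60 min, 31 of 40 were above 1 with a median of 0.10, from 0.883-fold (Cdt1) to 1.51-fold (Bub1). In KO mice at 30 min, 15 of 40 were above 1 with a median of -0.13, from 0.59-fold (Aurkb) to 1.47-fold (Cdk1). In KO mice at 60 min, 34 of 40 were above 1 with a median of 0.23, from 0.936-fold (Tpx2) to 1.49-fold (Bub1). Over all measured probes the median log2 ratios were -0.05, -0.01, -0.01 and 0.01 in the same order, with 42.2%, 46.9%, 48.2% and 51.2% of probes above 1.

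In KO mice at 60 min the mitosis genes had 24 of 26 above 1 (median log2 ratio 0.26) and the replication genes 10 of 14 (median 0.14). Each comparison rests on 1 pair of RNA samples and has no replicate check. The low value of Aurkb rests on a dim probe, which was well above background in 9 of 16 readings (2 channels on 8 arrays). The other dim members were Cenpf with 8, Ccne2 with 12 and Foxm1 with 14 readings, and the remaining 36 genes had 16 of 16. Basal keratinocyte markers at 30 min had median log2 ratios of 0.16 in WT mice and -0.27 in KO mice, and at 60 min 0.02 and 0.27. Skeletal muscle markers had 0.75 and -0.71 at 30 min, and 0.02 and 0.05 at 60 min. At 30 min, 6 of 28 were up-regulated in WT mice and 5 down-regulated in KO mice. Suprabasal keratinocyte markers had 0.15 and -0.47 at 30 min, with Krt1 and Krt10 down-regulated in KO mice, and 0.12 and 0.16 at 60 min. Hair matrix and precortex markers had 0.28 and 0.77 at 30 min, and 1.45 and -0.45 at 60 min, with 16 of 26 up-regulated in WT mice at 60 min and 12 in KO mice at 30 min. In WT mice at 60 min, hepatocyte markers had -0.43, with 7 of 16 down-regulated, and erythroid markers -0.63, with 1 of 10 down-regulated. In KO mice at 30 min, myeloid markers had 0.58, with 2 of 10 up-regulated. The part of such cells in the members' ratios was not tested.

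**Figure D1:**
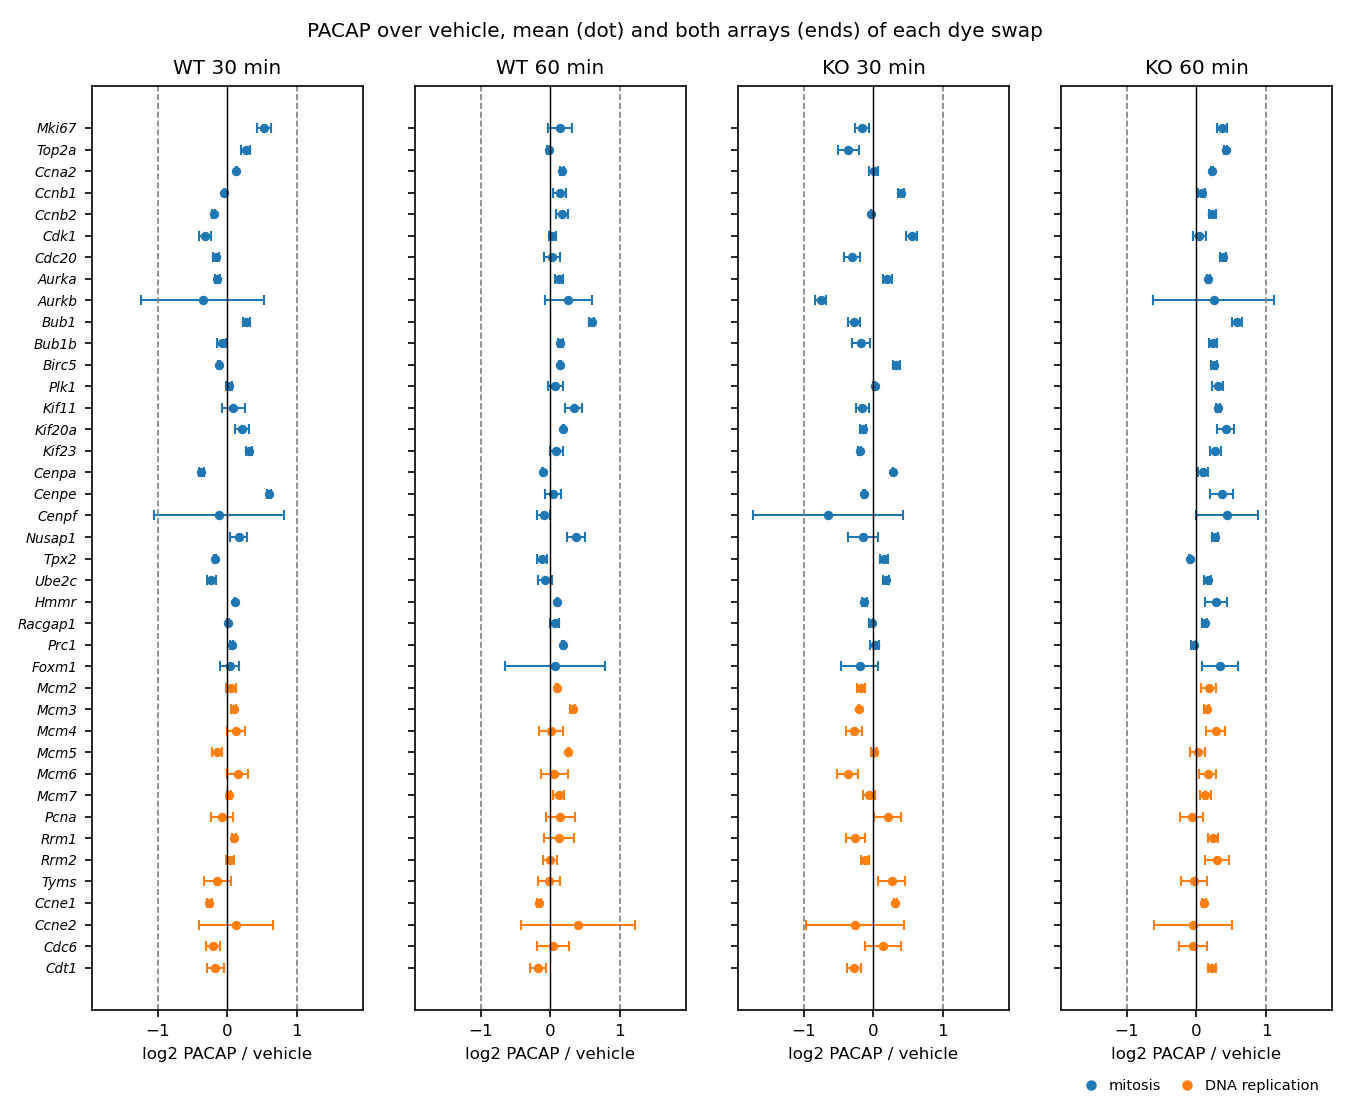
The log2 ratio of PACAP over vehicle (x axis, dashed lines at 2-fold and 0.5-fold) of each member (y axis) in the 4 comparisons, with the dot for the mean and the bar ends for the 2 arrays of the dye swap. All dots lie between 0.59-fold and 1.51-fold, and the widest bar in each comparison is that of a dim gene.

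With the 4 comparisons as 4 values, limma was asked for a change shared by all of them, for a difference of the PACAP effect between KO and WT, and for a difference between 60 and 30 min. Each of these fits called 0% of 30351 probes, and 0 members. At an unadjusted p under 0.05 there were 678, 972 and 483 probes. The members among these were 0, 0 and 1, and the 1 was Aurkb, with a log2 difference of 0.81 between the times.

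With vehicle and PACAP samples in 1 fit, 20 of 26 mitosis genes had a lower level at 60 than at 30 min after the injection and 0 a higher one, by limma at an adjusted p below 0.05, while 0 of 14 replication genes passed in either direction. Levels are log2 intensities per RNA sample, averaged over the dye swap, and the fit held genotype and treatment as covariates. Time differs only between hybridised pairs, while both samples of a pair enter this fit. The SE and adjusted p given for single genes below are those of this fit. With the pair correlation estimated over the members 5 of the 20 passed (adjusted p = 0.0348 for Plk1), and with pair means or with vehicle or PACAP samples alone 0 did (smallest adjusted p = 0.231, 0.14 and 0.874). Of all probes tested, 3.65% were lower and 5.71% higher. The median log2 difference was -0.64 for mitosis genes, -0.03 for replication genes and -0.02 for all probes. In bulk skin, fewer dividing cells and less RNA per cell cannot be told apart. Each genotype, treatment and time is 1 RNA sample, so time and the skin taken cannot be told apart there either. Below, "fell" means lower in the samples of 60 min than in those of 30 min.

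Plk1, the kinase of spindle assembly and cytokinesis, was read on chromosome 7 (mm9) at bases 129313220 to 129313279. Its level in WT mice went from 9.86 at 30 min to 8.96 at 60 min after vehicle, and from 9.94 to 9.04 after PACAP. In KO mice it went from 10.14 to 8.91 after vehicle and from 10.17 to 9.17 after PACAP. All 4 samples of 30 min lay above all 4 of 60 min, and Plk1 fell by 1.01 on the log2 scale (SE 0.07, adjusted p = 0.01). With pair means the adjusted p of Plk1 was 0.231.

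Mki67, on chromosome 7 from 142881591 to 142881650, had levels of 9.48 and 8.90 after vehicle and 9.99 and 9.01 after PACAP in WT mice at 30 and 60 min. In KO mice the levels were 10.28 and 8.91 after vehicle and 10.12 and 9.30 after PACAP. The groups did not overlap, and Mki67 fell by 0.94 (SE 0.15, adjusted p = 0.0252, with pair means 0.231). Its dimmer probe went from 8.93 to 8.15 in WT vehicle samples and from 9.53 to 8.14 in KO vehicle samples.

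Cdc20, the activator of the anaphase-promoting complex, was read on chromosome 4 from 118105534 to 118105593. Its levels in WT mice were 11.62 and 10.73 after vehicle and 11.48 and 10.83 after PACAP, and in KO mice 11.86 and 10.55 after vehicle and 11.55 and 10.91 after PACAP. Every sample of 30 min was above every sample of 60 min, and Cdc20 fell by 0.87 (SE 0.14, adjusted p = 0.0252, with pair means 0.231).

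Among spindle kinases and motors, Aurka fell by 0.85 (SE 0.11, adjusted p = 0.019), Cenpe by 0.82 (SE 0.12, adjusted p = 0.0217) and Kif23, a motor of the dividing cell's midzone, by 0.78 (SE 0.09, adjusted p = 0.0142). Kif11, the motor that separates the spindle poles, fell by 0.71 and Kif20a by 0.73. The microtubule bundler Prc1, on chromosome 7 from 87461048 to 87461107, fell by 0.65 (SE 0.05, adjusted p = 0.01), from levels of 10.40 to 10.76 at 30 min to 9.71 to 10.09 at 60 min. Nusap1, Tpx2 and Hmmr, which also act on spindle microtubules, fell by 0.72, 0.52 and 0.51.

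The cyclins Ccna2, Ccnb1 and Ccnb2 fell by 0.52, 0.72 and 0.62, the checkpoint kinases Bub1 and Bub1b by 0.52 and 0.77, and Birc5 by 0.72. Top2a, the topoisomerase that untangles chromosomes, fell by 0.50, and Foxm1, the transcription factor of mitosis genes, by 0.42. The adjusted p of the 20 genes lay between 0.01 and 0.0464. Their largest was that of Birc5. With pair means 0 of the 20 passed (smallest adjusted p = 0.231). Of the mitosis genes 7 had several measured probes, and all 10 dimmer probes had an estimate below 0, of which 2 passed, those of Mki67 and Tpx2. The dimmer probes of Ccnb1 (-0.58 and -0.54, adjusted p = 0.196 and 0.221) and Birc5 (-0.62 and -0.51, adjusted p = 0.212 and 0.256) did not pass. Counted by genes whose every measured probe passed, 18 mitosis genes were lower.

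Another 6 mitosis genes had a value below 0 that did not pass. These were Cdk1 (log2 difference -0.43, adjusted p = 0.222), Cenpa (-0.54, adjusted p = 0.117), Ube2c (-0.60, adjusted p = 0.0553), Racgap1 (-0.20, adjusted p = 0.0544), Aurkb (-0.20, adjusted p = 0.0764) and Cenpf (-0.20, adjusted p = 0.0754). Cdk1, on chromosome 10 from 68801072 to 68801131, had 10.79 and 10.55 after vehicle and 10.52 and 10.59 after PACAP in WT mice at 30 and 60 min, and 11.10 and 10.54, and 11.63 and 10.65, in KO mice. Its time difference was near 0 in the WT PACAP samples and largest in the KO PACAP samples. The values of Aurkb and Cenpf are those of probes close to background.

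**Figure D2:**
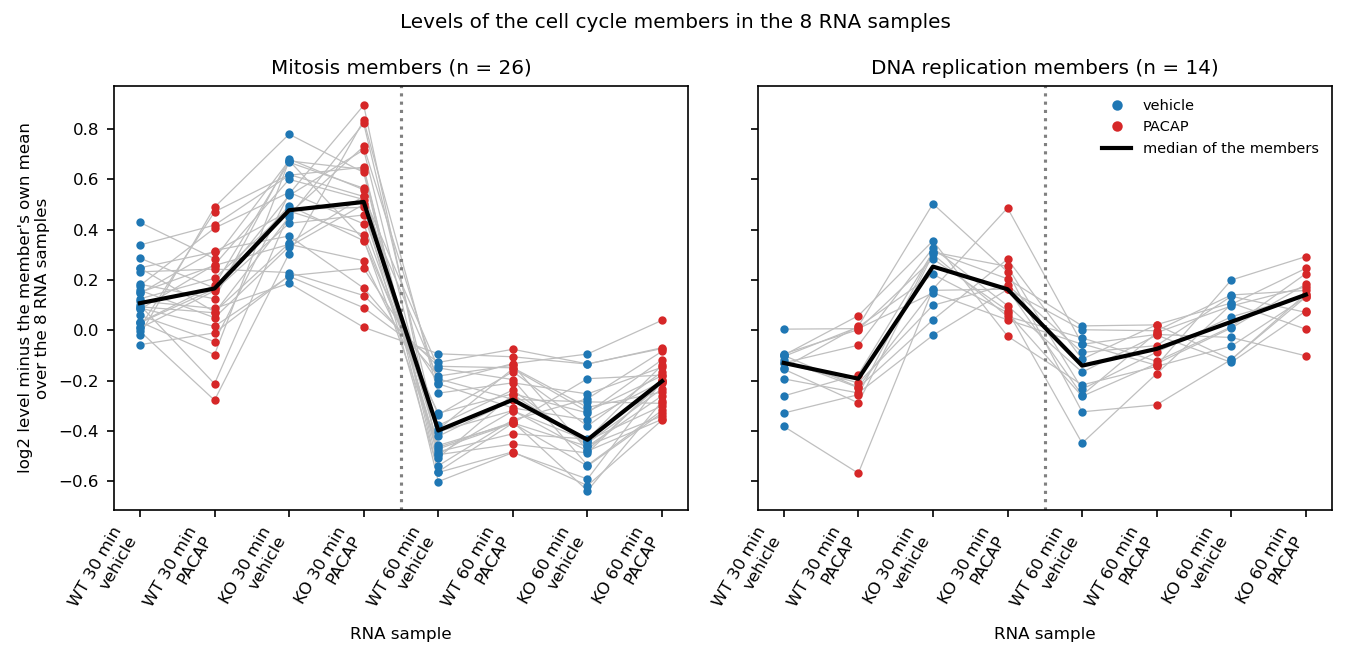
The log2 level of each member, minus its own mean over the 8 RNA samples (y axis), in each RNA sample (x axis), with 1 grey line per member and the median in black, mitosis genes left and replication genes right. The dotted line parts 30 from 60 min, and in mitosis genes the medians of all 4 samples at 30 min lie above those of all 4 samples at 60 min.

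The replication genes had no time difference that passed the test. Pcna had levels of 13.54 and 13.54 after vehicle and 13.43 and 13.68 after PACAP in WT mice at 30 and 60 min, and 13.70 and 13.77, and 13.94 and 13.66, in KO mice. Its log2 difference was 0.01 (SE 0.10, adjusted p = 0.958). Mcm5 had 11.40 and 11.24 after vehicle and 11.28 and 11.49 after PACAP in WT, and 11.66 and 11.60, and 11.67 and 11.67, in KO, with a difference of 0.00 (SE 0.08, adjusted p = 0.994). The samples of the 2 times overlapped in both genes.

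Mcm4 had the lowest value of the replication genes (-0.30, SE 0.11, adjusted p = 0.128) and Ccne1 the highest (0.15, SE 0.14, adjusted p = 0.525), with 7 genes below 0 and 7 above. Rrm2, which makes deoxyribonucleotides, had 0.03 (SE 0.14), and Mcm7 -0.06 (SE 0.07). Cdc6 had 0.03 by its brightest probe and -0.07 by its dimmer one. These genes were not detectably different between the times, which does not show that they were the same.

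The direction in mitosis genes held in each pair of samples matched by genotype and treatment. The median log2 difference was -0.51 in WT vehicle samples, -0.41 in WT PACAP samples, -0.89 in KO vehicle samples and -0.73 in KO PACAP samples, with 26, 25, 26 and 26 of 26 genes below 0. The exception was Cdk1 in the WT PACAP samples (0.07). By dimmer probes, Birc5 (0.10 and 0.14), Ccnb1 (0.01) and Cdk1 (0.32) were also above 0 in that pair. For replication genes the medians were -0.02, 0.12, -0.20 and -0.04. The levels at 30 min were all above those at 60 min in 22 of 26 mitosis genes and in 1 of 14 replication genes (Ccne2), against 11.9% of probes. The overlap in Ccnb2, Cdk1, Cenpa and Racgap1 left 4 mitosis genes outside this count.

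The mean level of the 26 mitosis genes was 8.98 and 9.02 in WT mice at 30 min and 8.49 and 8.58 at 60 min, after vehicle and PACAP. In KO mice it was 9.33 and 9.34 at 30 min and 8.47 and 8.65 at 60 min. The time difference in KO was set against that in WT with a fit added after the values were seen, which called 0% of probes. At an unadjusted p under 0.05 it found 12 of 40 members, all with a lower 60 minus 30 min difference in KO than in WT mice, while 8.56% of all probes were lower and 7.42% higher, and the smallest adjusted p of a member was 0.252.

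The calls depended on how the 4 pairs were treated. With the mean of each pair as 1 value, or with vehicle or PACAP samples alone, 0 of 40 members passed. The same held without the WT pair at 30 min, the WT pair at 60 min or the KO pair at 60 min. Without the KO pair at 30 min, 21 mitosis and 2 replication genes were lower and 3 replication genes higher. Of all 30357 probes, 5562 were higher and 5456 lower in that setting. With the correlation within pairs estimated over the members (0.447, against 0.179 over all probes, added after the values were seen), 5 passed, which were Plk1 and Prc1 (adjusted p = 0.0348), Kif11 (adjusted p = 0.0394), Foxm1 (adjusted p = 0.0434) and Kif23 (adjusted p = 0.0438). All 26 mitosis genes were below 0 under each of these, which is a weak check. Pair means and the members' correlation leave the estimates as they were, so the direction could not change there. Leaving out either KO pair gave the same estimate (-0.902 for Plk1), as did leaving out either WT pair (-1.118). With the software's processed signals 20 mitosis genes passed, 19 of them among the 20 here, with Ube2c in place of Birc5, while over all probes 3191 were higher and 754 lower, against 1733 and 1108 here.

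**Figure D3:**
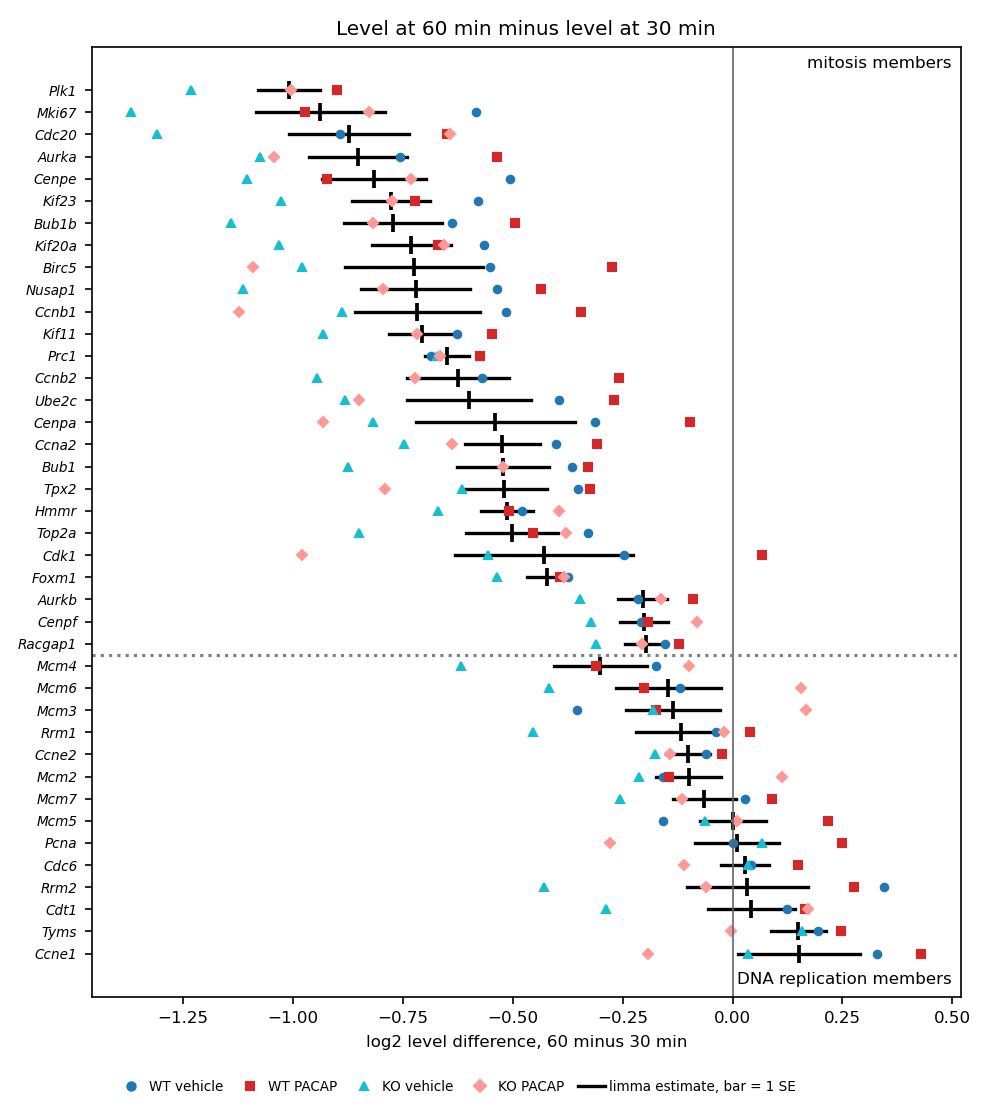
The log2 level at 60 min minus that at 30 min (x axis) of each member (y axis) in the 4 matched pairs of RNA samples (coloured marks) with the limma estimate (black tick) and its standard error (black bar), mitosis genes above the dotted line and replication genes below. Every mitosis estimate lies below 0, from -1.01 (Plk1) to -0.20, while replication estimates lie from -0.30 (Mcm4) to 0.15 (Ccne1).

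Marker lists of skin cells give the setting of this fall. Basal keratinocyte markers were below 0 in 13 of 15 genes between 60 and 30 min, with a median log2 difference of -0.32 and 0 of 15 past the test. Their median level was between 10.74 and 11.25 in the samples of 30 min and between 10.24 and 10.85 in those of 60 min, and none was under background on every array. Hair matrix and precortex markers are mostly keratin genes and do not measure dividing cells alone. Of these, 21 of 26 were above 0, with a median of 0.90. As higher 2 passed (Msx1 and Msx2) and as lower 2 (Foxn1 and Dlx3), of which 0 passed with the pair correlation estimated over the members (smallest adjusted p = 0.0866). Their median level was between 8.40 and 9.41 at 30 min and between 8.69 and 10.43 at 60 min. In WT vehicle samples it was lower at 60 min (8.69) than at 30 min (9.18). Suprabasal keratinocyte markers had a median of -0.09, skeletal muscle 0.18, cartilage and bone 0.23, erythroid 0.00, myeloid 0.14, hepatocyte 0.19 and housekeeping genes 0.01. Cartilage and bone had 3 of 19 higher, myeloid 2 of 10, hepatocyte 2 of 16, housekeeping 1 of 20, and erythroid 1 higher and 1 lower of 10. Of all probes 5.71% were higher and 3.65% lower. With the members' pair correlation, Apoc3 of the hepatocyte list alone passed among these (adjusted p = 0.0487). Whether a different share of basal cells in the samples entered the fall was not tested.

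Between the genotypes 2 of 40 members passed as higher in KO than in WT mice, Mcm7 and Prc1, and 0 as lower, while 2.19% of all probes were higher and 2.17% lower. With the pair correlation estimated over the members 0 passed (smallest adjusted p = 0.125). At an unadjusted p under 0.05, 14 of 40 members had a higher value in KO, and 0 a lower one, against 12.6% and 13.6% of all probes. The fitted KO minus WT value was above 0 in all 14 replication genes (median log2 difference 0.26) and in 23 of 26 mitosis genes (median 0.19), against a median of -0.01 over all probes. These counts use the brightest probes. Dimmer probes of Cdk1 (-0.06 against 0.37) and Tpx2 (-0.10 against 0.13) lay on the other side of 0.

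Mcm7, a subunit of the replicative helicase, was read on chromosome 5 from 138605925 to 138605984. Its level in WT mice was 10.87 and 10.90 after vehicle and 10.96 and 11.05 after PACAP at 30 and 60 min, and in KO mice 11.45 and 11.19 after vehicle and 11.39 and 11.27 after PACAP. All 4 KO samples were above all 4 WT samples, and Mcm7 was higher in KO by 0.38 (SE 0.07, adjusted p = 0.0487). Prc1 was higher by 0.30 (SE 0.05, adjusted p = 0.0424), from 10.40 and 9.71 after vehicle and 10.48 and 9.90 after PACAP in WT to 10.75 and 10.08, and 10.76 and 10.09, in KO.

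The largest difference of a member was that of Ccne1, which did not pass (0.57, SE 0.14, adjusted p = 0.0752). It had 9.07 and 9.40 after vehicle and 8.89 and 9.32 after PACAP in WT mice, and 9.62 and 9.66, and 9.94 and 9.75, in KO mice, so the groups did not overlap. Mcm5 (0.30, adjusted p = 0.0829), Mcm4 (0.38, adjusted p = 0.1), Mcm3 (0.36, adjusted p = 0.114) and Ccnb2 (0.48, adjusted p = 0.074) did not pass. KO samples were all above WT samples in 6 of 14 replication genes (Mcm3, Mcm5, Mcm7, Ccne1, Cdc6 and Cdt1) and 0 of 26 mitosis genes, against 8.5% of probes.

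The median KO minus WT difference of replication genes was 0.42 after vehicle and 0.37 after PACAP at 30 min, and 0.22 and 0.20 at 60 min. In mitosis genes it was 0.33 and 0.26 at 30 min, and -0.01 and 0.05 at 60 min, where 16 of 26 were below 0 after vehicle and 9 after PACAP. Without either pair of 30 min, the fitted median of mitosis genes was 0.01, with 13 of 26 below 0. No member passed with vehicle or PACAP samples alone, with pair means, or without either WT pair or the KO pair at 60 min. Markers of basal keratinocytes, of hair matrix with precortex, and of skeletal muscle had medians of -0.04, 0.17 and -0.14 in the same contrast. Their part was not tested.

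**Figure D4:**
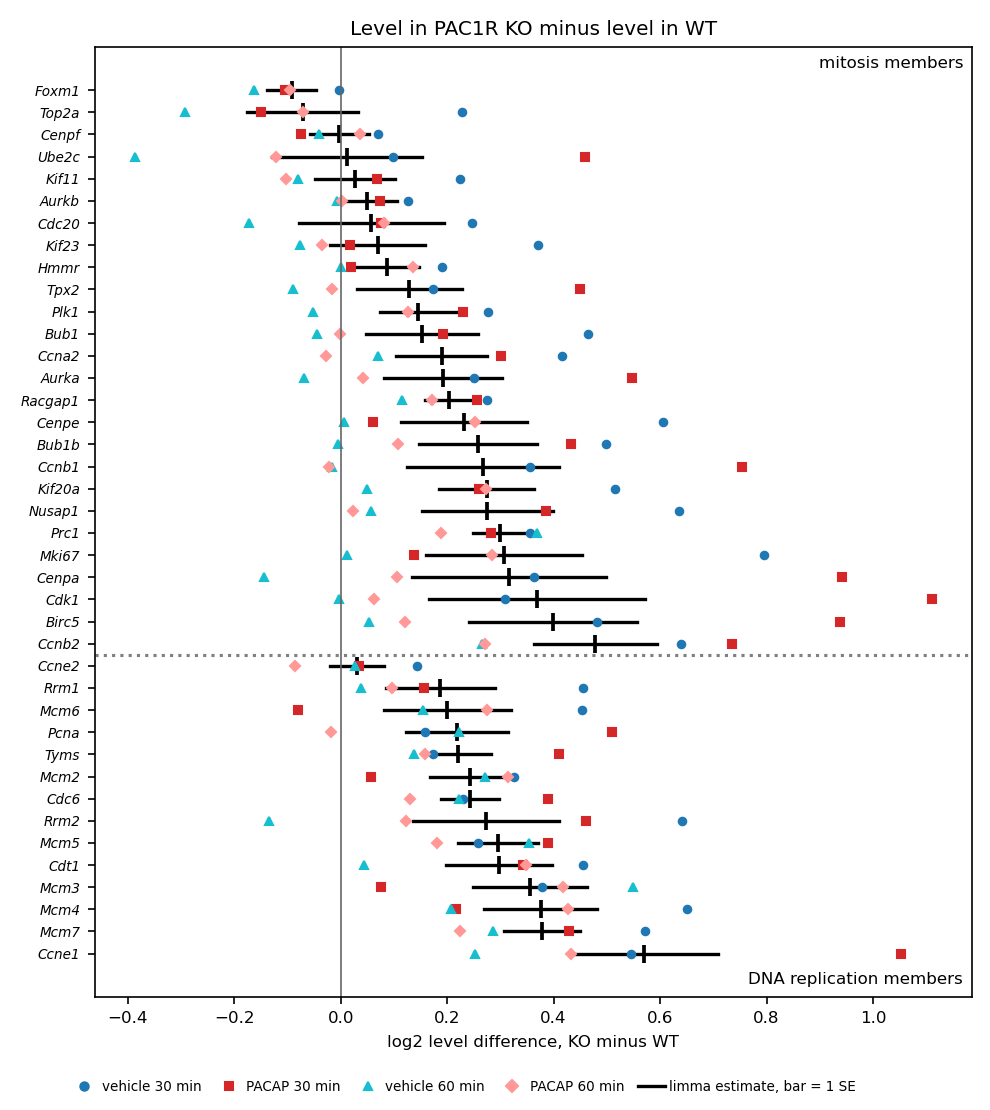
The log2 level in PAC1R KO minus that in WT mice (x axis) of each member (y axis) at each time and treatment (coloured marks), with the limma estimate (black tick) and its standard error (black bar), mitosis genes above the dotted line and replication genes below. All 14 replication estimates lie above 0, and in mitosis genes the marks of 30 min lie mostly to the right of those of 60 min.

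Other genes of the cell cycle were taken from lists that hold no member. Of 45 measured genes of other mitosis functions, 21 were lower at 60 min and 0 higher, with 44 below 0 and a median log2 difference of -0.41. With the pair correlation estimated over the members 4 of the 21 passed (Kif2c, Kif18b, Aspm and Gtse1, smallest adjusted p = 0.0384). Aspm, a spindle pole protein (-1.18, adjusted p = 0.0129), Anln, which acts in cytokinesis (-1.04, adjusted p = 0.0224), and Incenp, the scaffold of Aurkb (-0.86, adjusted p = 0.0238), were chosen as examples after their values were seen. Of 46 other replication genes, 5 were lower (Mcm10, Brca2, E2f7, E2f8 and Hells) and 0 higher, with a median of -0.07. With the members' pair correlation E2f7 alone passed (adjusted p = 0.0482). Over all probes 3.65% were lower, with a median of -0.02.

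Of 21 G1 cyclins, kinases and regulators, 0 passed between the times (median -0.03), and in KO E2f4 was lower (log2 difference -0.38). Of 20 inhibitors and antiproliferative genes, Wee1, the kinase that holds Cdk1 inactive (0.60, adjusted p = 0.0432), and Cdkn1c, the inhibitor p57 (0.29, adjusted p = 0.0458), were higher at 60 min, and 0 were lower (median 0.09). Of all probes, 5.71% were higher and 3.65% lower at 60 min. Cdkn1c was also lower in KO than in WT mice (-0.33, adjusted p = 0.0488), and Smc2, a condensin subunit, was higher (0.46, adjusted p = 0.0498). In KO, 2.19% of all probes were higher and 2.17% lower, so single calls in lists of this size are near the share over all probes. Of all probes, 0 passed in either contrast with pair means or 1 treatment alone, so the calls of these lists were lost there. With the members' pair correlation Wee1 and Cdkn1c did not pass between the times (smallest adjusted p of the inhibitors = 0.089), and 0 probes passed between the genotypes, which takes in E2f4, Cdkn1c and Smc2.

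Under the counting rule for PACAP, Mycn was up-regulated 2.18-fold in WT mice at 60 min and was the only gene of these 4 lists to meet it. The largest ratios of each list in the comparison where its median lay farthest from 0 were Kif2c 1.5-fold, Kif14 1.49-fold and Kif15 1.44-fold among mitosis genes, and E2f7 1.43-fold, E2f8 1.4-fold and Brca2 1.24-fold among replication genes, both in KO mice at 60 min. In KO mice at 30 min they were Ccnd1 and Ccnd2 (cyclins D, 0.668-fold each) and Cdk7 (1.47-fold) among G1 genes, and Btg1 (0.596-fold), Klf4 (0.616-fold) and Ccng1 (0.623-fold) among inhibitors.

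The PACAP ratio of a member at 30 min moved with where its probe lies along the transcript. The position is the start that the files give for each probe, read here as bases along the transcript. It was checked on probe pairs of 1 transcript under 1000 bases apart, of which 1707 of 1872 (91.2%) differed by as many bases as their genome coordinates, within 1 base. Across the 40 members, Spearman's rho of position with the log2 ratio at 30 min was 0.644 in WT and -0.42 in KO mice, and at 60 min 0.169 and 0.487. Across all measured probes with a position it was 0.416 and -0.504 at 30 min, and 0.106 and 0.262 at 60 min. These describe genes on the same arrays, which are not independent.

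In WT mice at 30 min the median log2 ratio was -0.23 for the 5 members below position 1500, 0.02 for the 22 from 1500 to 3000 and 0.11 for the 13 beyond. In KO mice it was 0.21, -0.09 and -0.18. All probes gave -0.15, -0.02 and 0.17 in WT, and 0.14, -0.12 and -0.28 in KO.

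Within genes, 6 members had measured probes at least 500 bases apart, a span set after the values were seen, and at 30 min the ratio at their last position was above that at their first in 4 of 6 in WT mice and below it in 5 of 6 in KO mice. In Birc5, Cdc6 and Tpx2 the files give these 2 probes different transcript accessions. Ccnb1 was 1.84-fold at position 532, 1.71-fold at 846 and 1.32-fold at 2228 in KO mice at 30 min, and 0.742-fold, 0.738-fold and 0.97-fold in WT mice. Birc5 was 1.62-fold at 269, 1.64-fold at 415 and 1.26-fold at 3336 in KO, and 0.773-fold, 0.756-fold and 0.921-fold in WT. Cdk1 went from 1.47-fold at 1111 to 0.973-fold at 2670 in KO, and from 0.801-fold to 1.07-fold in WT, and Tpx2 from 1.12-fold to 1.07-fold and from 0.886-fold to 0.983-fold. Ccne1 had 1.24-fold at both 741 and 1874 in KO, and 0.855-fold and 0.837-fold in WT. Cdc6 went from 1.1-fold at 2349 to 0.639-fold at 4520 in KO, and in WT it went down too, from 0.869-fold to 0.789-fold. The last probes of Cdk1, Cdc6 and Tpx2 and the first of Ccne1 were well above background in only 8 or 9 of 16 readings. Another Cdk1 probe at 1130, close to the brightest at 1111, was 1.61-fold in KO and 0.688-fold in WT, and both dimmer Ccnb1 probes and this one passed the 1.5-fold rule in KO mice at 30 min. The ratio at 30 min thus differed between probes of 1 gene, and the cause was not tested. Other probes lay on the other side of 1 than the brightest one for Racgap1 (0.891-fold against 1.01-fold) in WT mice at 30 min and for Ccne1 (1.06-fold against 0.892-fold) and Ccnb1 (0.977-fold against 1.1-fold) in WT mice at 60 min. The same was seen for Cdc6 (0.639-fold against 1.1-fold) in KO mice at 30 min, for Tpx2 (1.07-fold against 0.936-fold) and Cdk1 (0.994-fold against 1.03-fold) in KO mice at 60 min, and for the Cdk1 probe at 2670 at 30 min.

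The median time difference by position was -0.57, -0.72 and -0.52 for mitosis genes in the bins below 1500, from 1500 to 3000 and beyond, against 0.02, -0.01 and -0.13 over all probes. Within a gene it differed with the probe in WT PACAP samples, where Ccnb1 had -0.03 at position 532, 0.01 at 846 and -0.35 at 2228, and Birc5 0.10 at 269, 0.14 at 415 and -0.28 at 3336. The rho of position with the difference was -0.147 over the members and -0.305 over all probes. For KO minus WT it was -0.23 and -0.154.

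**Figure D5:**
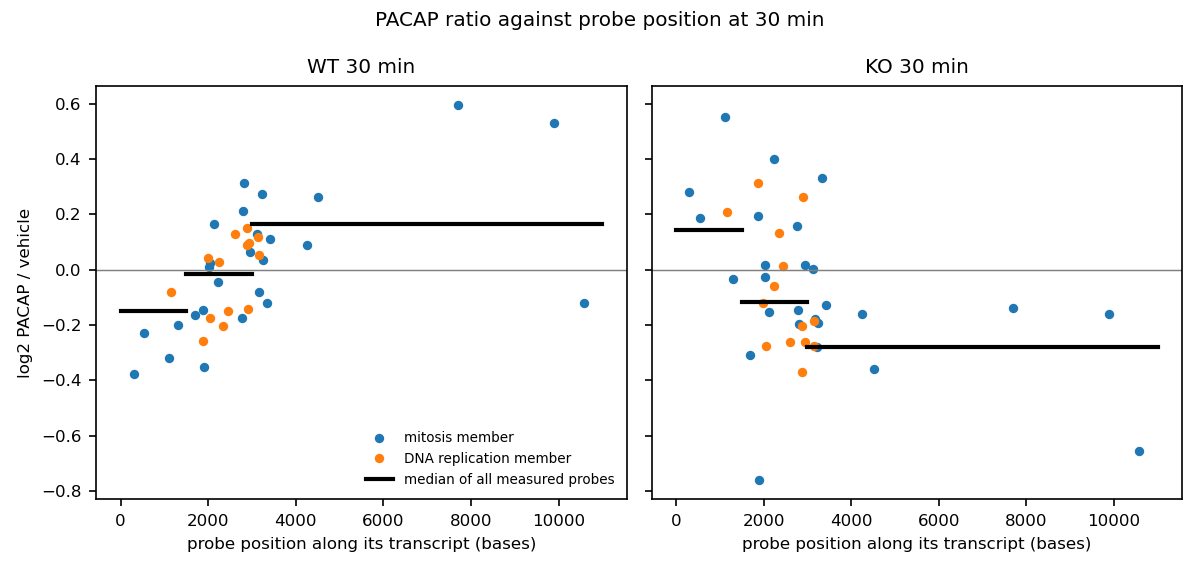
The log2 ratio of PACAP over vehicle (y axis) at 30 min against the position of each member's brightest probe along its transcript in bases (x axis), in WT and KO mice, with black lines for the median of all measured probes in each of 3 position bins. The lines go from -0.15 to 0.17 in WT and from 0.14 to -0.28 in KO mice.

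The probes outside the set whose levels over the 8 RNA samples were most like the mean level of the 40 members were ranked by Pearson's r. They were Med1 (0.992), Ncaph (0.991), Fmn2 (0.99), Knstrn (0.988), Sgo1 (0.988), Pop1 (0.986), Tbc1d31 (0.986), Kif22 (0.986), Cdca3 (0.979) and Scaper (0.978). Of these 10, 4 stood in the cell cycle lists (Ncaph, Sgo1, Kif22 and Cdca3). The 8 samples share hybridised pairs, and r is given as a description.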

How the data were processed

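Skin RNA of 8 samples was measured on 8 Agilent mouse arrays with 60-base probes, in 4 dye-swapped pairs. The authors scanned and extracted the arrays with Agilent Feature Extraction (version 11.0.1.1 in the submitters' processing notes), which corrected background and normalized dyes by LOWESS. The deposited log10 ratios are red over green, with 13.4% to 25% of spots set to 0 by the software. The deposited p-value of each spot comes from the software's error model and concerns 1 array. The deposited intensity values are the mean signal, background and processed signal of each channel. The authors' series matrix was checked against the scanner files and served as an alternative. Probe coordinates and gene names are those of the files (mm9).

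By the labelled dyes, every log ratio was set as PACAP over vehicle and averaged over the spots of a probe and over the dye swap, since its 2 arrays hold the same RNA and count as 1 replicate. Levels are log2 intensities after normexp background correction (offset 50), loess and Aquantile, averaged over the swap. Tests were made with limma 3.58.1 in R 4.3.3 (lmFit, eBayes, Benjamini-Hochberg over all probes tested, adjusted p below 0.05) on 30351 probes (ratios) or 30357 probes (levels) with a channel well above background on each array, with the hybridised pair as a random effect for levels (duplicateCorrelation). In simulated data of this layout the within-pair correlation was estimated too low and the p-values of the level fits came out too small. All 40 members are named by their brightest probe, with other measured probes where their PACAP ratio or their fitted time or genotype difference disagrees in sign. Of the lists of other cell cycle genes, those past the counting rule or the 3 largest ratios are named, and for likeness the 10 most correlated probes. Cell type markers are given by counts and medians, and not every marker past the counting rule is named. Genes named beside this rule are said to be chosen after their values were seen, or passed a level test. The members and lists were chosen with earlier results of these data known.

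Alternatives were other folds and p filters, processed signals, quantile normalization, no filter, pair means, 1 treatment alone and each pair left out. A variance trend, the pair correlation over the members, a genotype by time term and the count by every measured probe were added after the data were seen. Motifs and figures used Python 3.11.15, numpy 2.4.6 and matplotlib 3.10.9. The steps were tested on simulated data.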

Additional observations from a re-analysis of the deposited data

Results flagged for a closer look

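At 30 min, 17 of the 40 members went one way in WT mice and the other way in KO mice on all 4 arrays, which is 42.5% of the members against 37.4% of measured probes. Mki67, Top2a, Bub1, Kif20a, Kif23, Cenpe, Hmmr, Mcm3 and Rrm1 (9 genes) were above 1 in WT and below 1 in KO. Ccnb1, Cdk1, Aurka, Birc5, Cenpa, Tpx2, Ube2c and Ccne1 (8 genes) were below 1 in WT and above 1 in KO. The probes of the 9 genes lay between positions 2792 and 9895 along the transcript (median 3222), and those of the 8 genes between 307 and 3336 (median 1876.5). At 60 min 4 members were opposite, 10% against 11.7% of probes. The difference at 30 min was not tested, with 1 pair of RNA samples per genotype, and the limma fit of KO against WT over both times called 0 probes (972 at an unadjusted p under 0.05).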

How the results depend on the processing

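The median log2 ratios of the members moved by less than their spread between the comparisons (SD 0.15) under the alternatives run, but the median in WT mice at 30 min, 0.02 as reported, was -0.03 with every probe and -0.01 with PACAP in Cy3 alone. The median time difference of mitosis genes was below 0 under every alternative, though pair means and the members' correlation leave it unchanged by construction. That of replication genes, -0.03 as reported, was 0.00 with PACAP samples alone and 0.04 without either KO pair. The median genotype difference of mitosis genes, 0.19 as reported, was 0.01 without either pair of 30 min, and that of replication genes was above 0 throughout. By the brightest probes, the counting rule gave 0 members except in WT mice at 30 min at 1.5-fold, where 1 was up-regulated. Dimmer probes of Ccnb1 and Cdk1 met the 1.5-fold rule in KO mice at 30 min. Members lower at 60 min (20 as reported) numbered 0 with vehicle samples alone, PACAP samples alone or pair means. They numbered 5 with the pair correlation estimated over the members, and between 0 and 23 when 1 pair was left out, where 0 to 3 were higher. Members higher in KO (2 as reported) numbered 0 with vehicle samples alone, PACAP samples alone, pair means or the members' correlation. They numbered 1 with processed signals (Ccne1), 1 with the variance trend, and between 0 and 3 when 1 pair was left out. Neither Mcm7 nor Prc1 passed with processed signals (adjusted p = 0.186 and 0.0787) or with the variance trend (adjusted p = 0.0546 and 0.0905). With processed signals, 3191 probes were higher and 754 lower at 60 min (1733 and 1108 as reported), and 3127 higher and 502 lower in KO (664 and 660). Over all probes, the fits of the PACAP ratio called 0, but 59 higher and 3 lower for the mean with genotype and time as covariates, 16 and 1 for KO against WT with time, and 1 and 1 for 60 against 30 min with genotype, none of them members. With 1 comparison left out they called between 0 and 71 higher and between 0 and 99 lower. The level fits called 0 probes with 1 treatment alone, pair means or any left-out pair other than KO at 30 min, without which 5562 were higher and 5456 lower at 60 min, and 1564 and 1431 in KO. With the members' correlation these were 329 and 30, and 0 and 0, and with the variance trend 2277 and 2446, and 1696 and 1587. Without the filter they were 2730 and 1488, and 1262 and 1045. A pair left out leaves 1 pair in an arm, which is assumed to vary like the others, and for lost calls the cause was not tested. No paired analysis was possible because the numbers 1 and 2 name the dye orientation of a technical dye swap and not animals. This concerns the replicate numbers alone, since the hybridised pair was a random effect in the level fits. Signals near background limit Aurkb, Cenpf, Ccne2 and Foxm1.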
